A study of Mus musculus with 5 samples.

Results

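The genes described here are 47 translation initiation factor genes and close relatives, out of 19939 mouse genes with a probe set of their own. They were taken by name: every probe set whose only gene symbol began with Eif and a digit, apart from Eif2ak2 and Eif2s3y, with the probe set of highest mean signal standing for each gene. Initiation factors load the starter methionyl-tRNA on the small ribosomal subunit, bring the subunit to the capped end of an mRNA, scan to the start codon and then let the large subunit join. The eIF2 complex carries the starter tRNA, and its exchange factor eIF2B recharges it with GTP. Kinases that phosphorylate eIF2 alpha block this exchange under stress, and eIF4E-binding proteins keep the cap-binding protein eIF4E away from its scaffold. Embryonic stem (ES) cells are known for low overall protein synthesis that increases when they differentiate. Dicer cuts microRNA precursors into mature microRNAs, which act on mRNA translation and stability.

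RNA came from asynchronously growing mouse ES cells on Affymetrix whole-transcript arrays, 1 array for each of 3 wild-type (WT) and 2 Dicer-deficient (KO) cultures. Both genotypes were grown without feeder cells in an equal mixture of serum medium with LIF and N2B27 medium with 2i, the inhibitor pair that holds ES cells undifferentiated. The design text calls the cultures biological replicates. The labels do not name the ES cell lines, the number of clones or the Dicer deletion, so differences between genotypes and between lines cannot be told apart. A further KO culture and cells in early G1 are named in the design text and were not analysed here.

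The array medians lay between 5.39 and 5.45, with values read as log2 signals. Dicer1 gave 8.84, 8.82 and 8.85 in WT and 7.20 and 6.84 in KO, 3.52-fold lower (adjusted p 0.000129). All 10 ES cell markers were above the median of all probe sets on every array, at 8.34 to 13.27, and 2 of them were called lower (Esrrb at -0.72 and Tdgf1 at -0.70). The 8 feeder fibroblast markers were at 3.25 to 6.70 (5 of 8 above the median on every array), with a mean of 5.13 to 5.35 in WT and 5.21 to 5.26 in KO. Of 6 trophectoderm markers, 3 were called higher in KO (Krt8 by 1.54, Gata3 by 1.23 and Krt18 by 0.49), Cdx2 and Elf5 were each at 0.06 and Eomes was at -0.49 (adjusted p 0.0977). The mean over this list was 5.77 to 5.88 in WT and 6.29 to 6.31 in KO. Among 6 primitive endoderm markers 1 was above the median on every array. In the feeder and endoderm lists 0 genes were called by limma, and 0 had an unadjusted p under 0.05. The part of these marker changes in the results below was not tested, and in bulk RNA fewer cells of a type and less RNA per cell cannot be told apart.

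Of the 47 genes, 8 (17.0%) fell in KO, 1 (2.13%) rose and 38 did not pass the test. Among all genes, 8.60% were called lower and 8.48% higher. Most of the 47 were well expressed: 45 had a mean above the median of all probe sets. Among the 11192 genes above that median, 14.4% were called lower and 13.5% higher, against 17.8% and 2.22% of the 45. In a fit of the brighter genes alone, 13 of the 45 (28.9%) were called lower and 1 (2.22%) higher, against 16.9% and 15.8% of all genes in that fit. The 5 genes added there were Eif2a, Eif2b3, Eif3l, Eif4ebp1 and Eif4g3. How far the share called lower lies above that of similarly bright genes thus depends on whether dim genes enter the fit, whereas the share called higher was below it in both. Neither contrast was tested. The genes that fell were Eif1b, Eif1ax, Eif4enif1, Eif2d, Eif1ad, Eif4ebp2, Eif5a and Eif4a2, and the gene that rose was Eif2s2. Every change was under 2-fold, while 2.30% of all genes and 3.82% of the brighter genes moved at least 2-fold.

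The 47 log2 differences (KO minus WT) ran from -0.81 to 0.33, with a median of -0.07 and quartiles of -0.28 and 0.04. The median was 0.01 over all genes and -0.01 over the brighter genes. In 32 of the 47 (68.1%) the difference was below 0, against 47.8% of all genes and 50.7% of the brighter ones. Both KO values lay below every WT value in 21 genes (44.7%), against 19.9% of all genes and 29.0% of the brighter ones. They lay above every WT value in 6 (12.8%), against 20.0% of all genes and 26.4% of the brighter ones. The WT arrays were not equal for these genes: WT array 1 was the highest WT array in 29 of 47 (32.7% of all genes), and WT array 3 the lowest in 28 of 47 (33.9% of all genes). Measured from the WT mean, the median of the 47 genes was 0.05, 0.01 and -0.05 on WT arrays 1, 2 and 3, and -0.11 and -0.07 on KO arrays 1 and 2. After the arrays were made equal in distribution by quantile normalization, 6 genes were called lower and 2 higher, 26 were below 0 and the median was -0.03.

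**Figure D1:**
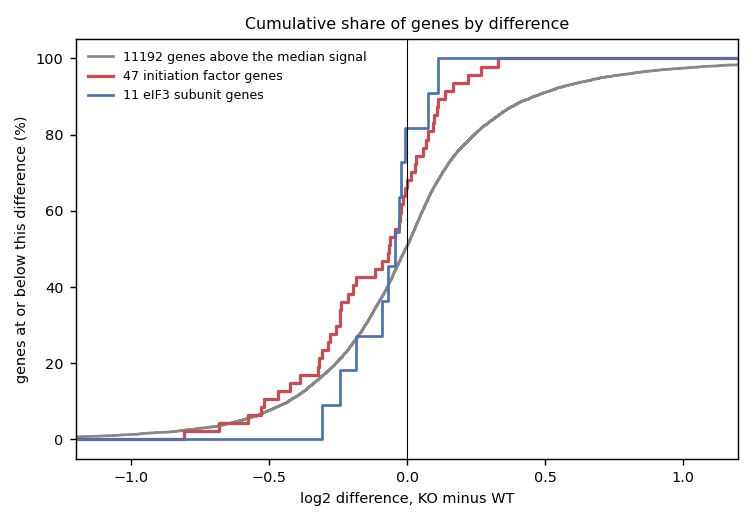
Cumulative share of genes (percent, y axis) by log2 difference, KO minus WT (x axis), for the 47 initiation factor genes, the 11 eIF3 subunit genes and the 11192 genes above the median signal. The 47 genes span -0.81 to 0.33, with 68.1% of them below 0 against 50.7% of the brighter genes.

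The promoters of the most strongly lowered genes and of the raised gene are shown because these 3 genes carry the extremes of the family. RefSeq (GRCm38.p6) gave a promoter window, from 250 bases before to 50 after the start, for 37 of the 47 genes. Each line gives the 100 bases before the start, 5′ to 3′ on the gene's strand, with an E-box (CACGTG, the motif bound by Myc and related factors) in capitals. The first is at chr9:120492506-120492605 (plus strand), the second at chrX:159372078-159372177 (plus strand) and the third at chr2:154892907-154893006 (minus strand).
Eif1b: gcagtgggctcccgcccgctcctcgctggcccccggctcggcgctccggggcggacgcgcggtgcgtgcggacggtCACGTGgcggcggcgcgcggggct
Eif1ax: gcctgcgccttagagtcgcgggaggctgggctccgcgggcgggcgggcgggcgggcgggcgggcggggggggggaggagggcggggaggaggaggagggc
Eif2s2: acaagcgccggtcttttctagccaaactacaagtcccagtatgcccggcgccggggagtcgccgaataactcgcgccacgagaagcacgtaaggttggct
Of these bases, 84% in Eif1b, 85% in Eif1ax and 59% in Eif2s2 were G or C. CACGTG was found in the windows of 9 of the 37 genes (24.3%): Eif1b, Eif3a, Eif3f, Eif3k, Eif4a1, Eif4e, Eif4h, Eif5a and Eif5a2. It was in the windows of 8.09% of all genes. A gene with several starts had several windows, and a match in any of them counted. Of all windows taken singly, 7.15% held it. The windows of the 37 genes had a median G and C content of 62.3%, against 52.75% over all genes. Among those 9, Eif1b and Eif5a were called lower and the other 7 were not called. The 2 stress-response motifs searched were TGATGCAA (bound by ATF and C/EBP factors) and TGACGTCA (the cyclic AMP response element). They were in the windows of 0 of the 37 genes, and of 1.03% and 2.03% of all genes. Both strands were read (CACGTG reads the same on both), and a match describes letters only.

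A group of 9 factors that bind the small subunit, deliver tRNA, select the start codon or govern subunit joining held 4 of the 8 genes that fell. That is 44.4% of the group, against 8.60% of all genes and 14.4% of the brighter genes. The group's median difference was -0.29, and 6 of the 9 had an unadjusted p under 0.05. The share of all genes with such a p was not counted, here or for the other groups. Eif1b encodes a close relative of eIF1, the factor that guards against the wrong start codon. It gave 8.20, 7.88 and 7.90 in WT and 7.26 and 7.11 in KO, both KO arrays lying well under every WT array. The difference was -0.81 (SE 0.117, 95% interval -1.08 to -0.54, adjusted p 0.00327), or 1.75-fold lower. Without KO array 1 or 2 its adjusted p was 0.0651 or 0.0876. Eif1ax, on the X chromosome, encodes eIF1A, which works beside eIF1 on the scanning subunit. Its signals were 9.58, 9.46 and 9.47 in WT and 8.77 and 8.87 in KO, with no overlap, a 1.61-fold fall (log2 difference -0.68, SE 0.0826, interval -0.88 to -0.49, adjusted p 0.00155). It was the only one of the 9 called genes to pass with each of the 5 arrays left out in turn, the highest adjusted p being 0.0441. The X chromosome as a whole held 59 genes called lower and 71 higher among 739 (7.98% and 9.61%, against 8.60% and 8.48% of all genes). Eif1a, the autosomal paralog of Eif1ax, gave 8.77, 8.65 and 8.51 in WT and 8.72 and 8.78 in KO. Its groups overlapped, and its difference was 0.11 (interval -0.12 to 0.33, adjusted p 0.579). The intervals of Eif1ax and Eif1a do not overlap; the difference between their changes was not tested.

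Eif1ad, a protein with an eIF1A-like domain, gave 9.49, 9.41 and 9.39 in WT and 8.82 and 9.00 in KO. It fell by 0.52 on the log2 scale (SE 0.0877, adjusted p 0.00637; 0.0781 without KO array 1). Eif2d can deliver tRNA to the small subunit without eIF2 and takes part in ribosome recycling. It gave 8.47, 8.28 and 8.17 in WT and 7.91 and 7.64 in KO, again with no overlap. Its fall of 0.53 (SE 0.12, adjusted p 0.0211) passed only with all arrays or without WT array 3 (0.037). Without WT array 1, WT array 2, KO array 1 or KO array 2 its adjusted p was 0.0767, 0.0941, 0.0878 or 0.216. Eif2a, an alternative tRNA carrier that is not a subunit of eIF2, was at 9.71, 9.66 and 9.57 in WT and 9.31 and 9.41 in KO, a difference of -0.29 that missed the threshold (adjusted p 0.0543; 0.0492 without WT array 3).

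The other general factors of this group did not pass the test. Eif5, which stimulates GTP hydrolysis by eIF2, gave 9.99, 9.94 and 9.89 in WT and 9.86 and 9.97 in KO (difference -0.03, adjusted p 0.899). Eif5b, the GTPase of subunit joining, gave 8.88, 8.97 and 8.84 in WT and 9.07 and 9.00 in KO (0.14, adjusted p 0.346). Eif6, which keeps free large subunits from joining, gave 10.68, 10.64 and 10.54 in WT and 10.33 and 10.48 in KO (-0.22, interval -0.42 to -0.01, adjusted p 0.158). For Eif5, KO array 1 was below every WT array and KO array 2 was among them. Both KO values of Eif5b were above every WT value, and both of Eif6 were below.

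**Figure D2:**
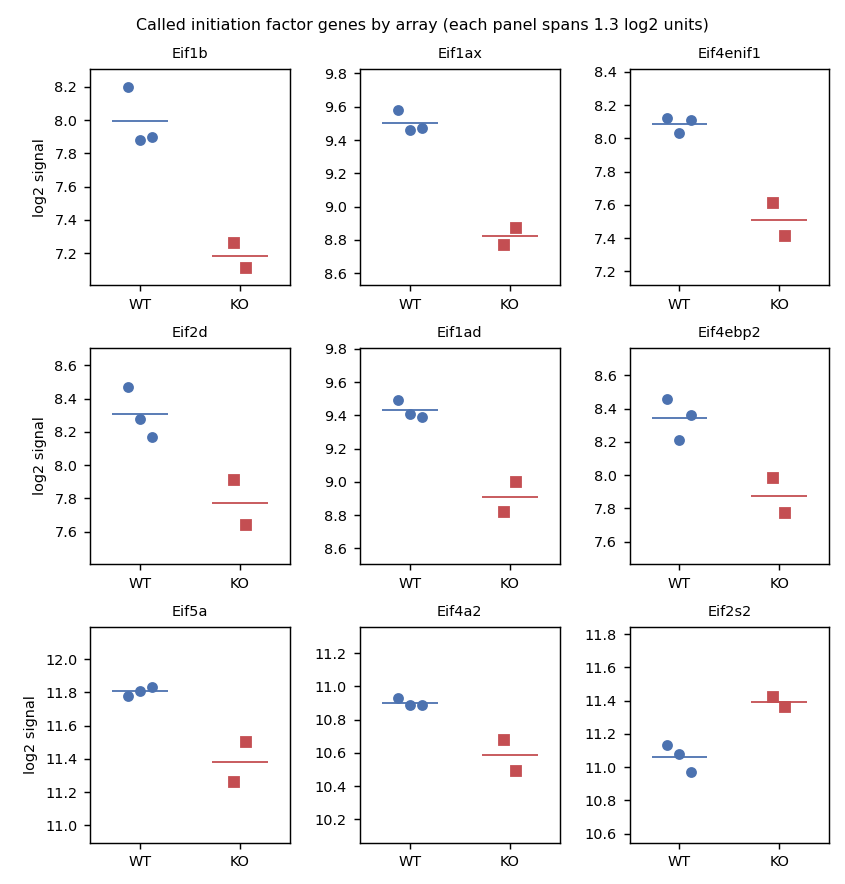
Log2 signal of each of the 9 called genes on each array (points), 3 WT and 2 KO, with lines at the group means. In all 9 the groups do not overlap, with KO lower in 8 and higher in Eif2s2.

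Of the eIF2 subunits, the beta subunit Eif2s2 rose while the gamma subunit Eif2s3x did not pass the test. Eif2s2 gave 11.13, 11.08 and 10.97 in WT and 11.42 and 11.36 in KO on its brighter probe set, 1.26-fold higher (log2 difference 0.33, SE 0.0835, interval 0.14 to 0.52, adjusted p 0.0331). With any 1 of the 5 arrays left out the adjusted p was above the threshold, at 0.0558 to 0.195. Its second probe set showed a larger difference: 10.73, 10.77 and 10.51 in WT against 11.54 and 11.68 in KO. That is 1.92-fold higher (0.94, interval 0.70 to 1.18, adjusted p 0.00115 in a fit over all 21789 named probe sets, in which the brighter probe set had 0.0338). Both probe sets placed KO above WT, and their intervals do not overlap. The transcripts that each one reads were not looked up, so which of the 2 differences stands for the gene's own locus is not known. Eif2s3x, also X-linked, gave 10.45, 10.45 and 10.41 in WT and 10.15 and 10.33 in KO (-0.20, adjusted p 0.182). Its Y-linked counterpart Eif2s3y, left out of the 47 by the rule, gave 7.94, 7.67 and 7.41 in WT and 6.04 and 6.09 in KO (-1.61, adjusted p 0.000432). The alpha subunit Eif2s1 was not analysed here.

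The 5 subunits of eIF2B had a median difference of -0.06, and 0 were called by limma (2 had an unadjusted p under 0.05). The shares to read this group and the 3 kinases below against are 14.4% lower and 13.5% higher, over the brighter genes. The catalytic subunit Eif2b5 gave 10.57, 10.54 and 10.29 in WT and 10.45 and 10.60 in KO, with overlap (0.06, adjusted p 0.818). Eif2b3 and Eif2b4 were at -0.26 and -0.24 (adjusted p 0.0556 and 0.126), Eif2b1 at -0.06 and Eif2b2 at 0.09. Of the 3 kinases of eIF2 alpha, 0 were called by limma and 0 had an unadjusted p under 0.05. Eif2ak3 (PERK, the kinase of endoplasmic reticulum stress) gave 6.53, 6.93 and 6.74 in WT and 6.97 and 7.03 in KO (0.27, interval -0.01 to 0.55, adjusted p 0.201). Both KO values were above WT, but the WT arrays spread as widely as the difference. Eif2ak4 (GCN2, the kinase of amino acid shortage) spread still more in WT, at 7.37, 7.12 and 6.84, with 7.14 on both KO arrays (0.03, adjusted p 0.935). Eif2ak1, the haem-regulated kinase, differed by 0.01 (adjusted p 0.960).

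eIF3 is the large scaffold that holds the scanning complex together, and 0 of its 11 measured subunits were called by limma. Among the brighter genes, 14.4% were called lower and 13.5% higher. In 2 of the 11, Eif3l and Eif3k, the unadjusted p was under 0.05. The median difference was -0.04 and the groups overlapped in 7 of the 11, against 4987 of the 11192 brighter genes. In 9 of the 11 (81.8%) the difference was below 0, against 50.7% of the brighter genes. After quantile normalization 5 of the 11 were below 0 and their median was 0.002, against 0.017 over all genes. The subunits' 95% intervals stayed within -0.52 and 0.31, that is, between a 1.43-fold fall and a 1.24-fold rise. These intervals are unadjusted and hold gene by gene, not for all 11 at once. Core subunits were close between genotypes. Eif3a gave 11.09, 11.12 and 11.03 in WT and 11.01 on both KO arrays (-0.07, adjusted p 0.660). Eif3b gave 11.11, 11.10 and 11.07 in WT and 11.08 and 11.26 in KO (0.08, adjusted p 0.667). Eif3c, at 10.77, 10.71 and 10.69 in WT and 10.63 and 10.80 in KO, was spread more by array than by genotype (-0.01, adjusted p 0.970). Eif3e gave 10.31, 9.91 and 9.97 in WT and 9.93 and 10.11 in KO, also with overlap (-0.04, adjusted p 0.894). The lowest values came from Eif3l and Eif3k, which interact with each other at the edge of the complex. Eif3l gave 11.23, 11.14 and 11.02 in WT and 10.86 and 10.78 in KO (-0.31, adjusted p 0.0539; 0.0383 without WT array 3). Eif3k gave 10.34, 10.23 and 10.04 in WT and 9.96 on both KO arrays (-0.24, adjusted p 0.169; 0.0489 without WT array 3). In both genes WT array 3 was the WT array nearest to KO.

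In the cap-binding group, 1 of 11 genes fell (9.09%), the helicase paralog Eif4a2, against 14.4% of the brighter genes. In this group 0 rose, against 13.5%, and the median was -0.02. Eif4a2 gave 10.93, 10.89 and 10.89 in WT and 10.68 and 10.49 in KO (-0.32, SE 0.086, interval -0.52 to -0.12, adjusted p 0.0420), 1.25-fold lower. The groups did not overlap, but the adjusted p was 0.0691 to 0.205 with any 1 of the 5 arrays left out. Eif4a1, the main helicase that unwinds mRNA leaders, gave 12.86, 12.95 and 12.94 in WT and 12.88 and 12.92 in KO (-0.02, interval -0.20 to 0.16, adjusted p 0.932). The other 2 probe sets of Eif4a1 were at -0.07 and -0.08 (adjusted p 0.666 and 0.568). Eif4e, the cap-binding protein, gave 9.75, 9.79 and 9.64 in WT and 9.64 and 9.81 in KO, with overlap (-0.00, interval -0.21 to 0.21, adjusted p 0.994). The other 2 probe sets of Eif4e were much dimmer, with WT means of 6.69 and 6.18. They were at -0.14 and 0.05 (adjusted p 0.619 and 0.876). The positions that the Eif4a1 and Eif4e probe sets read were not looked up. Eif4e2, a relative of Eif4e that binds caps weakly and represses some mRNAs, gave 9.18, 9.11 and 8.98 in WT and 8.87 and 8.75 in KO (-0.28, adjusted p 0.0810).

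Among the scaffolds, Eif4g2 (DAP5, an eIF4G relative that does not bind eIF4E) gave 11.49, 11.41 and 11.40 in WT and 11.27 and 11.36 in KO (-0.12, adjusted p 0.422). Eif4g3 was at -0.39 with an adjusted p of 0.0867 (0.0457 without WT array 3, whose 6.43 lay near the 6.39 of KO array 1; the other WT arrays were at 6.75 and 6.74 and KO array 2 at 6.11). Eif4g1, the main scaffold, was not analysed here. Eif4h, a cofactor of the helicase, was the highest of the group at 0.22 (adjusted p 0.124) and was called after quantile normalization. The other members, Eif4b, Eif4a3, Eif4e3 and Eif4e1b, were at -0.07, 0.07, 0.10 and 0.17 and did not pass the test. Eif4a3l1, a relative of the exon junction helicase Eif4a3 and 1 of the 2 dim genes with Eif4e3, was at 0.03.

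All 3 proteins that bind eIF4E and hold it back were lower on both KO arrays than on any WT array, and 2 of the 3 fell. Of the brighter genes, 29.0% were lower in this way and 14.4% were called lower. The median of the 3 was -0.47. Eif4enif1 (the eIF4E transporter of processing bodies) gave 8.12, 8.03 and 8.11 in WT and 7.61 and 7.41 in KO, 1.49-fold lower (-0.58, SE 0.0896, interval -0.79 to -0.37, adjusted p 0.00447; 0.0608 without KO array 2). Its second, dim probe set gave 5.64, 5.57 and 5.75 in WT and 5.50 and 5.57 in KO and was not called (-0.12, adjusted p 0.463). Eif4ebp2 gave 8.46, 8.21 and 8.36 in WT and 7.98 and 7.77 in KO (-0.47, SE 0.106, adjusted p 0.0213), 1.38-fold lower. It passed without WT array 2 (0.0454) and missed without WT array 1 (0.0820), WT array 3 (0.0712), KO array 1 (0.0911) or KO array 2 (0.202). Eif4ebp1, the best-known target of mTOR in this family, gave 10.34, 10.02 and 10.15 in WT and 9.83 and 9.86 in KO. Its difference of -0.33 (interval -0.57 to -0.08, adjusted p 0.0788) missed the threshold over all genes. Both KO values were below WT, but the WT arrays spread about as widely as the difference.

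eIF5A is the factor with the hypusine residue that helps ribosomes through difficult peptide bonds. Eif5a gave 11.78, 11.81 and 11.83 in WT and 11.26 and 11.50 in KO, 1.34-fold lower (-0.43, SE 0.0928, interval -0.64 to -0.21, adjusted p 0.0182). The KO arrays differed from each other by more than the WT arrays did. It passed without KO array 2 (0.0404) and missed without WT array 1 (0.0628), WT array 2 (0.0846), WT array 3 (0.0567) or KO array 1 (0.122). A second probe set pointed the same way, at 10.84, 10.86 and 10.78 in WT and 10.58 and 10.50 in KO (-0.29, adjusted p 0.0428). Eif5a2 was at -0.25 (adjusted p 0.130), with both KO values under all WT values.

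**Figure D3:**
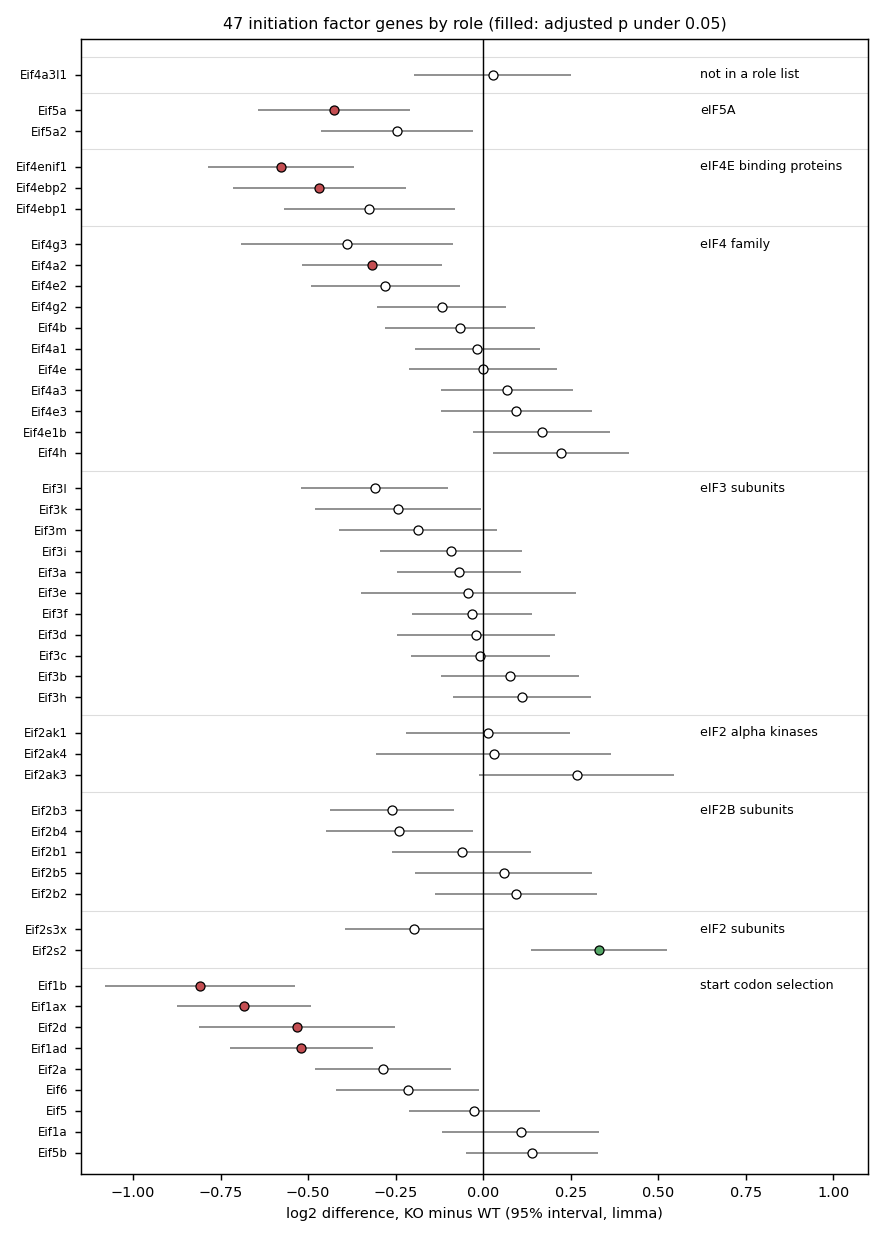
Log2 difference (KO minus WT) of each initiation factor gene with its 95% limma interval, arranged by role, called genes filled. The 11 eIF3 subunits run from -0.31 to 0.11, with 9 of them below 0. The group labelled start codon selection, which also holds tRNA delivery and subunit joining factors, reaches -0.81 in Eif1b.

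**Figure D4:**
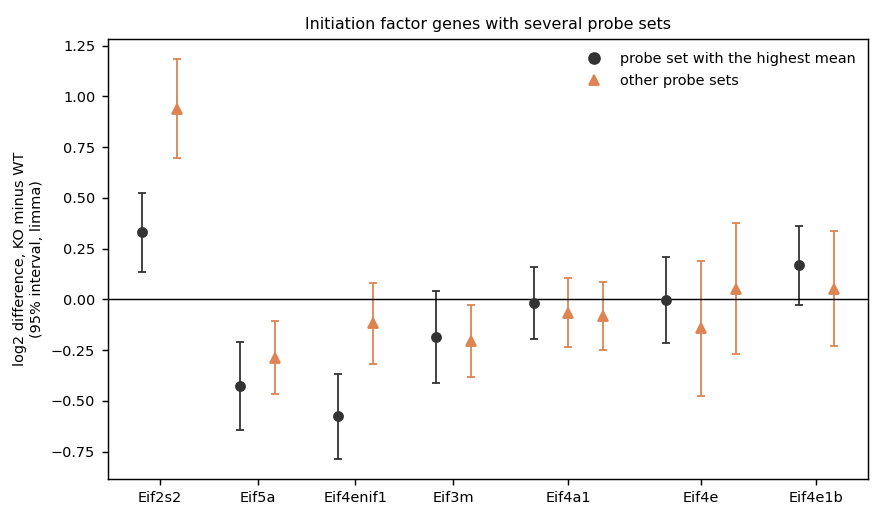
Log2 difference with its 95% interval for every probe set of the 7 genes that have several. The Eif2s2 probe sets stand at 0.33 and 0.94, and the Eif5a probe sets at -0.43 and -0.29.

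Genes that work with the initiation factors under other names were read as 5 lists, with 14 genes called lower and 10 higher. The shares to read each list against are 8.60% lower and 8.48% higher over all genes, and 14.4% and 13.5% over the brighter genes. Of 21 initiation partners, 3 fell and 3 rose (14.3% each, close to the brighter genes; median -0.12). Denr, which like Eif2d acts in recycling and reinitiation, gave 9.74, 9.64 and 9.46 in WT and 8.93 and 8.81 in KO (-0.74, adjusted p 0.0027; 0.0566 without KO array 1 and 0.0738 without KO array 2). Bzw2, an eIF5 mimic, gave 9.08, 9.11 and 9.07 in WT and 8.35 and 8.54 in KO (-0.64, adjusted p 0.00239) and passed with every array left out. In the other direction, Paip1, which links poly(A)-binding protein to initiation, gave 8.55, 8.74 and 8.38 in WT and 9.41 and 9.42 in KO (0.86, adjusted p 0.0021; 0.0689 and 0.0673 without KO array 1 and 2). Ddx3x, a helicase for structured leaders, gave 11.14, 11.07 and 10.92 in WT and 11.53 and 11.72 in KO (0.58, adjusted p 0.00702; 0.0591 and 0.104 without KO array 1 and 2). In both directions the named genes had no overlap between groups, which adds little because they were picked from called genes.

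The 13 kinases, phosphatase subunits and inhibitors that act on initiation factors gave 2 lower and 2 higher (15.4% each, also close to the brighter genes). Impact, an inhibitor of GCN2 activation, gave 10.42, 10.34 and 10.39 in WT and 10.97 and 11.12 in KO (0.66, adjusted p 0.00182), and was called with every array left out. Dnajc3, an endoplasmic reticulum chaperone known to inhibit eIF2 alpha kinases, rose by 0.47 (adjusted p 0.0102; 0.117 and 0.103 without KO array 1 and 2). Csnk2a2, a catalytic subunit of casein kinase 2, fell by 0.46 (adjusted p 0.014; 0.0605 without WT array 2, 0.135 and 0.134 without KO array 1 and 2). Mknk1, a kinase of eIF4E, fell by 0.38 (adjusted p 0.0363; 0.0976 and 0.136 without WT array 1 and 2, 0.239 and 0.187 without KO array 1 and 2).

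Targets of the integrated stress response, the programme that follows eIF2 alpha phosphorylation, gave 5 lower (45.5%, against 14.4% of the brighter genes) and 1 higher (9.09%, against 13.5%) of 11, with a median of -0.36. Nupr1, a stress-induced nuclear protein, gave 7.86, 7.87 and 7.85 in WT and 6.73 and 6.87 in KO (-1.06, adjusted p 0.000225). Chac1, a glutathione-degrading enzyme, gave 7.93, 7.79 and 7.90 in WT and 6.98 and 7.20 in KO (-0.78, adjusted p 0.00161). Both were called with every array left out. Trib3, a pseudokinase, was at -0.71 (adjusted p 0.00534; 0.112 and 0.0651 without KO array 1 and 2) and Vldlr, a lipoprotein receptor, at -0.48 (adjusted p 0.0134; 0.0716 without WT array 2, 0.129 and 0.0524 without KO array 1 and 2). Atf4 and Atf5, transcription factors of this response, were chosen for naming after their values were seen. Atf4 gave 9.18, 9.05 and 9.10 in WT and 8.62 and 8.74 in KO (-0.43, adjusted p 0.0117; 0.116 and 0.0659 without KO array 1 and 2). Atf5, the 1 gene called higher, gave 6.73, 6.80 and 6.92 in WT and 7.21 and 7.19 in KO (0.38, adjusted p 0.0203; 0.0662 and 0.0904 without WT array 1 and 2, 0.151 and 0.132 without KO array 1 and 2). Translation of Atf4 is what the response controls, and these arrays measure RNA.

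Elongation and termination factors gave 2 lower (11.8%) and 1 higher (5.88%) of 17, with a median of 0.02. Eef2k, the kinase that inhibits elongation factor eEF2, gave 7.42, 7.33 and 7.38 in WT and 8.25 and 8.24 in KO, 1.83-fold higher (0.87, adjusted p 0.000386), and passed with every array left out. Eef1e1, a protein of the tRNA synthetase complex, fell by 0.62 (adjusted p 0.00429; 0.0837 and 0.0503 without KO array 1 and 2). Hbs1l, a ribosome rescue factor, fell by 0.27 (adjusted p 0.0467) and missed the threshold with any 1 array left out, at 0.0552 to 0.18. The 11 mitochondrial translation factors gave 2 lower (18.2%) and 3 higher (27.3%), with a median of -0.10. Gfm2, which acts in mitochondrial ribosome recycling, gave 8.23, 8.19 and 8.23 in WT and 7.43 and 7.62 in KO (-0.69, adjusted p 0.00173) and passed with every array left out. The initiation factor Mtif2 gave 8.26, 8.39 and 8.33 in WT and 7.74 and 7.79 in KO (-0.56, adjusted p 0.00304; 0.0574 without KO array 1). The other mitochondrial initiation factor, Mtif3, moved the opposite way, from 6.58, 6.79 and 6.58 to 7.10 and 7.11 (0.46, adjusted p 0.0139; 0.0597 without WT array 1, 0.132 and 0.131 without KO array 1 and 2).

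**Figure D5:**
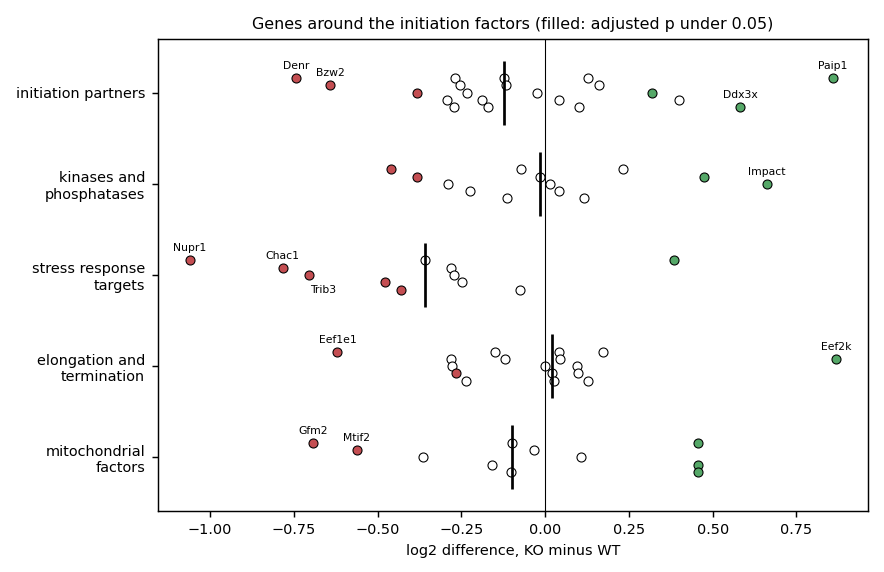
Log2 difference (KO minus WT, x axis) of each gene in the 5 further lists (rows), with called genes filled and the vertical bar at the list's median; heights within a row only separate the points. Nupr1 at -1.06 is the lowest, and Eef2k at 0.87 and Paip1 at 0.86 are the highest.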

How the data were processed

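The authors deposited 1 table of normalized log2 signals for 35556 probe sets on 5 arrays. The log base, background correction and normalization are not given in the sources used here; the values were read as log2 from their range, and another base would rescale each difference. Gene names came from GEO's platform annotation: 21789 probe sets had 1 symbol, 1621 several and 12146 none. Each of 19939 genes (by Entrez identifier) was represented by its probe set of highest mean; 10 probe sets naming an initiation factor beside other genes were left out. KO was compared with WT in limma 3.58.1 (R 4.3.3; lmFit and eBayes, no covariate, 95% intervals unadjusted), with Benjamini-Hochberg adjustment over all genes and a threshold of 0.05. With 3 against 2 arrays an exact permutation test cannot go below 0.1, so none is given. The small number of arrays limits the precision, and the median half-width of the 47 intervals was 0.21.

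The members and the gene lists were chosen with earlier results of these data known. Values in every array are given for all called members and a fixed set of core factors, and up to 4 of the largest called changes are named in each further list. All 47 members were found in RefSeq's gene table. Alternatives were centring, quantile normalization, a filter on dim genes, array weights, variance trend, robust moderation, other probe sets, a replicate block and leaving out each array.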

Additional observations from a re-analysis of the deposited data

How the results depend on the processing

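Median centring, robust moderation and the mean over a gene's probe sets kept all 9 called genes. The counts below are to be read beside the calls over all genes, 3404 in the main fit. Those became 3766 after quantile normalization, 3424 with a variance trend and 4247 with array weights. Without dim genes they were 3660 of 11189 genes. Genes called lower (8) became 6 after quantile normalization, which lost Eif4a2 and Eif5a, 10 with a variance trend, 13 without dim genes, 13 with array weights, and 2 to 9 with 1 array left out. Genes called higher (1) became 2 after quantile normalization, with Eif4h added, and 0 to 0 with 1 array left out. Over all genes the 3404 calls became 973 to 2956 with 1 array left out. In the further lists the 14 lower calls became 22 with array weights and 4 to 17 with 1 array left out, and the 10 higher calls became 2 to 8. With 1 KO array left, it is assumed to vary like the others. The cause of these shifts was not tested beyond the fewer arrays.

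Replicate numbers are shared by the genotypes, but the labels do not say that they pair cultures; same-numbered arrays deviated with correlations of 0.05 and 0.01 over genes. With a replicate block, 1 member was called lower (Eif1b) and 0 higher, 894 genes were called over all, and the further lists gave 2 lower and 2 higher. Replicate 3 has no KO array, so this fit takes the genotype difference from replicates 1 and 2 alone. The median of the 47 genes was -0.105 with 35 below 0, the same as without WT array 3. The block also leaves less information on the spread, and the cause of the drop in calls was not tested.

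The differences that turned sign were all of uncalled genes near 0. They were, after quantile normalization, Eif3c 0.0628, Eif3d 0.0293, Eif3e 0.00233, Eif3f 0.024, Eif4e 0.0443 and Eif5 0.0257, and with centring Eif4e 0.00167. Array weights gave Eif2ak1 -0.0254 and Eif3e 0.0188. The block gave Eif2ak1 -0.055, Eif2ak4 -0.105 and Eif2b5 -0.03, and another probe set gave Eif4e 0.0517. With 1 array left out the ranges were Eif3c -0.0933 to 0.0767, Eif3e -0.13 to 0.08, Eif4a3l1 -0.0533 to 0.11, Eif4e -0.0867 to 0.0833, Eif3d -0.14 to 0.0933, Eif2ak1 -0.0767 to 0.10, Eif2ak4 -0.105 to 0.16, Eif2b5 -0.03 to 0.13, Eif4a1 -0.045 to 0.00333, Eif5 -0.08 to 0.03, Eif2b2 -0.0467 to 0.23 and Eif3b -0.0133 to 0.17.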

Other observations

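Eif4a1 did not pass the test on any of its 3 probe sets (-0.02, -0.07 and -0.08), yet many genes beside it did. The genome positions that these probe sets read were not looked up, so whether their values come from the Eif4a1 locus is not known. RefSeq places Eif4a1 on chromosome 11, and of the 24 measured genes nearest to it (12 on each side) 12 were called lower, 0 higher, and 18 had a difference below 0. The shares to read this window and those below against are 8.60% lower, 8.48% higher and 47.8% below 0, over all genes. The median difference of the 24 neighbours was -0.37, whereas for all genes with 24 such neighbours this median ran from -0.10 (5th percentile) to 0.09 (95th percentile). The gene before Eif4a1, Cd68, which encodes a lysosomal glycoprotein, gave 8.18, 7.94 and 7.65 in WT and 6.71 and 6.75 in KO (-1.19, adjusted p 0.00157). The gene after it, Senp3, a SUMO protease, gave 9.83, 9.56 and 9.51 in WT and 8.91 and 8.77 in KO (-0.79, adjusted p 0.00315). Polr2a, the largest subunit of RNA polymerase II, was next, at 9.72, 9.42 and 9.50 in WT and 8.91 and 8.84 in KO (-0.67, adjusted p 0.00447). These neighbours were chosen for naming after their values were seen.

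Eif5a, at -0.43 and -0.29 on its 2 probe sets, lies near Eif4a1 on the same chromosome, and their windows of neighbours share 6 genes. The positions that the Eif5a probe sets read were also not looked up, so whether -0.43 and -0.29 belong to this region is not known. Around Eif5a, 7 of 24 neighbours were called lower and 1 higher, with a median of -0.15. Of genes outside this region, Eif3c, itself at -0.01 and not called, had neighbours with a median of -0.12, 7 of them lower and 0 higher, and the neighbours of Eif4ebp2 had a median of -0.10, also with 7 lower and 0 higher. Around the other called genes with a full window the medians were near 0: -0.05 for Eif1ad, -0.02 for Eif1b, -0.01 for Eif1ax and Eif2s2, 0.02 for Eif2d and 0.04 for Eif4a2. Whether these neighbourhoods bear on the members' own differences was not tested.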
